A study of Homo sapiens with 30 samples.

Results

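The HOX genes encode homeodomain transcription factors that set positional identity along the body axis, and in the human genome they lie in 4 clusters, HOXA, HOXB, HOXC and HOXD, whose gene order follows the order of their expression from anterior to posterior. They are the textbook targets of Polycomb repressive complex 2, whose methyltransferase subunit places H3K27me3, the trimethylation of lysine 27 on histone H3, over whole clusters in cells that keep them silent. H3K9me3, the trimethylation of lysine 9, marks a different kind of silent chromatin, typically repeats and zinc finger gene arrays. The 38 HOX genes described here are the members of the 4 clusters listed for this study, each taken as its gene span in GENCODE on the hg19 build plus 5 kb on each side, and together these spans merge into 7 windows of 464 kb.

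Both marks were measured by ChIP-seq in HEK293T cells, a line derived from human embryonic kidney that expresses SV40 large T antigen, 48 hours after transfection with antisense oligonucleotides. The H3K27me3 groups were a negative control oligonucleotide (NC), a knockdown of the long noncoding RNA LINC00641 (ΔLINC00641) and a knockdown of SETD5-AS1 (ΔSETD5-AS1), and the H3K9me3 groups were a separate NC and a knockdown of LINC00662 (ΔLINC00662). Per the file headers, 1 oligonucleotide each was used against LINC00641 and SETD5-AS1 and a mixture against LINC00662, so an effect of the target cannot be told apart from one of that oligonucleotide. The 30 samples formed 10 groups of 3, that is 5 ChIP groups and their 5 inputs, and the authors merged the 3 replicates of a group before they called peaks, which left 1 peak list per ChIP group. Peak lists carry no RNA level, so the depletion of each target was not checked here. There is therefore no spread between replicates, and no test of any difference was possible. Intervals on fragment numbers below are exact Poisson 95% intervals that cover counting error only, and both H3K27me3 knockdowns were set against the same NC list.

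Almost no peak of either mark lay in the HOX clusters. Of 431864 peaks in the 5 lists, 6 overlapped a HOX window. The H3K27me3 NC list held 0 peaks there and the ΔLINC00641 list also held 0, while the ΔSETD5-AS1 list, the H3K9me3 NC list and the ΔLINC00662 list held 2 each. No list had a peak in the windows of the HOXA or the HOXC cluster, the HOXB cluster held 1 peak in ΔSETD5-AS1, and the other 5 peaks were in the HOXD cluster. All 6 had a fold enrichment of 2.24 to 2.66, under the median of their lists (3.14 in ΔSETD5-AS1, 3.21 in H3K9me3 NC and 3.26 in ΔLINC00662), and none of the 6 places was called in more than 1 list.

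Sequences are given here for the 4 peaks that do not touch an untranslated region, because these are the places in the clusters that were called at all, and for 3 start sites that set them in context. Each peak is shown as 200 bases of the hg19 forward strand around its summit, and each start site as the 200 bases upstream of the canonical start on the gene's own strand. Capitals mark CG dinucleotides, the sites of DNA methylation in vertebrates and the base pairs that make a CpG island. The upstream sequence of HOXD13 (chr2:176957249-176957448) is shown because a peak lay near that gene, that of HOXD10 (chr2:176981306-176981505) because its start was the single HOX start site with a peak, and that of HOXA13 (chr7:27239711-27239910, minus strand) because it is the most CG-dense of the HOXA cluster, where no peak was called.
ΔSETD5-AS1 H3K27me3 peak in HOXB7, chr17:46695432-46695631: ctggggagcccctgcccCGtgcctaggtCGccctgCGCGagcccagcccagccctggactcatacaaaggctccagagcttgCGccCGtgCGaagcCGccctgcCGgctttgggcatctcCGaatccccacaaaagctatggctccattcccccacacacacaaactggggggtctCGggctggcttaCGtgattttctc
ΔSETD5-AS1 H3K27me3 peak upstream of HOXD13, chr2:176954728-176954927: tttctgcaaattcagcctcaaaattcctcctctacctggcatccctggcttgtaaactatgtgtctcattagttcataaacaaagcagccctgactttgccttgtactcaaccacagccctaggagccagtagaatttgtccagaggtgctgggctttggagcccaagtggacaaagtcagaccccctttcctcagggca
H3K9me3 NC peak at HOXD10, chr2:176980793-176980992: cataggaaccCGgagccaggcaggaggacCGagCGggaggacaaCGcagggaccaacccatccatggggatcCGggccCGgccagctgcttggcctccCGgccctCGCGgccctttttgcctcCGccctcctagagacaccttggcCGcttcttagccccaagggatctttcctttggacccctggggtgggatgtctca
ΔLINC00662 H3K9me3 peak in HOXD3, chr2:177025180-177025379: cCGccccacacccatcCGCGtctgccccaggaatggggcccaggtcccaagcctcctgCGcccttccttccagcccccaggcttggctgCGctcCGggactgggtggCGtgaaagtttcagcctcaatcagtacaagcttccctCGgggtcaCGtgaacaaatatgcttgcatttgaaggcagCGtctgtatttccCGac
HOXD13 upstream: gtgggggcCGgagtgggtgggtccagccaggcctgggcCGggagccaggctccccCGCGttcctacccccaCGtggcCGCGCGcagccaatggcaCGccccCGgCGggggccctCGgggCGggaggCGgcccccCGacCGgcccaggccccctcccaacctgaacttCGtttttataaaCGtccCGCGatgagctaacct
HOXD10 upstream: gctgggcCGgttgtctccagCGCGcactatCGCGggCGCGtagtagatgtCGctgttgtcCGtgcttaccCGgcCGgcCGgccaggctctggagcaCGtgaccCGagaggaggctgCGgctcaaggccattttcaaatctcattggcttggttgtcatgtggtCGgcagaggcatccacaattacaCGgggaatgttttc
HOXA13 upstream: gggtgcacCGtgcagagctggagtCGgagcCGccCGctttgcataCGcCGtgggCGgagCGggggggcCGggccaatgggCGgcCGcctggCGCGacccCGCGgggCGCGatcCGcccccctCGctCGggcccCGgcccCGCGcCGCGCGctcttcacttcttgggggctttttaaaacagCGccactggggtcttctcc
The peaks differed among themselves in this respect. The 200 bases in HOXB7 held 12 CG sites, those at HOXD10 and in HOXD3 held 11 each, and those upstream of HOXD13 held 0. The start sites of HOXD13, HOXD10 and HOXA13 held 20, 17 and 27 in the same length. These do not stand for the HOX start sites as a whole. Across the HOX genes the upstream counts ran from 3 (HOXB8, HOXC6 and HOXD4) to 27 (HOXA13 and HOXD1). The peaks in HOXB7, at HOXD10 and in HOXD3 were inside that range, and the peak upstream of HOXD13 was under it.

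The genes that the H3K27me3 peaks of ΔSETD5-AS1 touched were of the middle and posterior groups. The first peak, chr17:46695365-46695785, was 421 bp long and lay in an intron of the HOXB7 record, with its summit 2878 bp from the start site of HOXB8. It lay upstream of the canonical start site of HOXB7, with its near end 6986 bp away, between HOXB8 and HOXB9. Because HOX genes are packed closely, the spans of HOXB7, HOXB8 and HOXB9 all took in this 1 peak. Its summit was read by 36 fragments (25.2 to 49.8) over a local input of 14.5, a fold enrichment of 2.39 with a −log10 q of 3.82, and 53.8% of the peaks of that list had a −log10 q no higher. The second peak, chr2:176954653-176955010, was 358 bp long, lay between genes 2621 bp from the start site of HOXD13, which specifies the most posterior positions, and was read by 23 fragments (14.6 to 34.5) over an input of 8.03. Its fold enrichment was 2.66 and its −log10 q 3.10, a value that 39.7% of that list did not exceed.

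Neither place was called in NC or in ΔLINC00641, but the lists cannot show that the mark differed there. Scaled to the genome-wide level of NC, the 36 fragments of the HOXB7 peak came to 31.3 (21.9 to 43.3). The weakest of 282 NC peaks whose local input was within 5% of the same multiple of the genome-wide level had 24 fragments, which lies inside that interval. For the HOXD13 peak the scaled number was 20.0 (12.7 to 30.0), and the weakest of 3083 NC peaks of like input had 16 fragments. The same held against ΔLINC00641, where the scaled numbers were 30.7 (21.5 to 42.5) and 19.6 (12.5 to 29.4) and the weakest peaks had 24 and 16 fragments. A place just under the level needed for a call in NC or ΔLINC00641 would thus be within counting error of what ΔSETD5-AS1 had.

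The H3K9me3 peaks inside the windows were all in the HOXD cluster, at different places in NC and in ΔLINC00662. Outside the windows, in the stretch between HOXB9 and HOXB13, each list held 1 more, 33.4 kb from the HOXB13 start site in both. In NC, 1 peak of 438 bp (chr2:176980652-176981089) lay in an intron of the HOXD10 record with its summit 613 bp upstream of the canonical start site, and was read by 34 fragments (23.5 to 47.5) over an input of 12.3, with a fold enrichment of 2.63 and a −log10 q of 4.48. The other NC peak, of 408 bp (chr2:177036978-177037385), lay in an exon of HOXD3 that also falls within the noncoding gene HAGLR, 15260 bp from the HOXD3 start site, with 24 fragments (15.4 to 35.7), a fold enrichment of 2.60 and a −log10 q of 3.15. Of the NC list, 56.1% of peaks had a −log10 q no higher than the first of these, and 29.9% no higher than the second.

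In ΔLINC00662 both peaks lay inside HOXD3, an anterior HOXD gene, and their summits were under 1 kb apart. The peak of 307 bp (chr2:177025052-177025358) lay in an intron 3245 bp from the start site and had 25 fragments (16.2 to 36.9), a fold enrichment of 2.24 and a −log10 q of 2.15. The peak of 373 bp (chr2:177025688-177026060) lay over an exon 3677 bp from the start site and had 27 fragments (17.8 to 39.3), a fold enrichment of 2.4 and a −log10 q of 2.74. They were among the weaker calls of that list, in which 13.1% and 25.6% of peaks had a −log10 q no higher.

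The 2 lists shared no H3K9me3 peak in the HOX windows. None of the 2 NC peaks was overlapped by a peak of ΔLINC00662 (0%, Wilson 95% interval 0 to 65.8%), beside 28687 of 75538 NC peaks (95% interval 37.6 to 38.3%) over chromosomes 1 to 22, a share inside the first interval. With the stretches between windows of a cluster filled in, which adds the peak near HOXB13, 33.3% of 3 NC peaks were overlapped, and with 50 kb on each side of the genes 58.3% of 12. The NC peaks nearest to the HOXD3 peaks of ΔLINC00662 were 11698 and 11266 bp away. Peaks covered 846 bp of the windows in NC and 680 bp in ΔLINC00662, a ratio of 0.804, and this turned to 1.19 when peaks within 1 kb of each other were merged. As with H3K27me3, each of the 4 peaks was within counting error of a place that would not be called. The HOXD10 peak scaled to the level of ΔLINC00662 came to 27.7 (19.2 to 38.7) fragments beside 21 in the weakest peak of like input there, and the HOXD3 peaks scaled to NC came to 30.7 (19.9 to 45.3) and 33.1 (21.8 to 48.2) beside 25. The exon peak of NC came to 19.6 (12.6 to 29.1) beside 16.

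**Figure D1:**
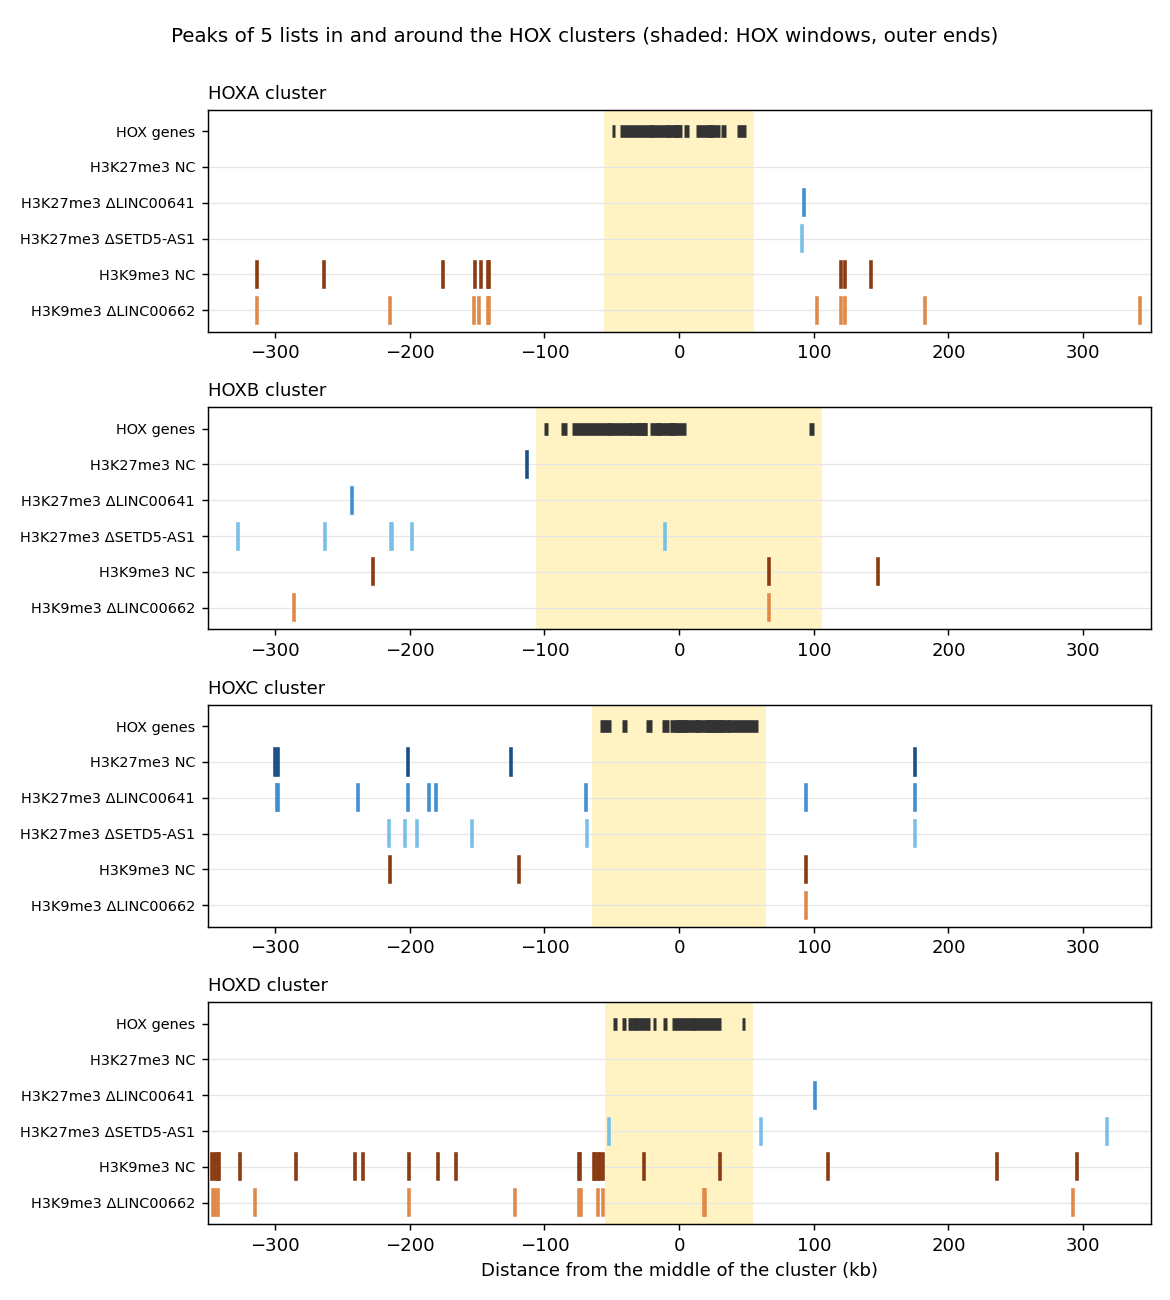
Peaks of the 5 lists (coloured ticks, 1 row per list) and HOX gene spans (black) against the distance in kb from the middle of each cluster. Shading runs between the outer ends of each cluster's windows, so it includes the stretch between HOXB9 and HOXB13 that is outside them, and within the windows themselves only 6 ticks fall, 1 in HOXB and 5 in HOXD.

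Per gene, the count of HOX genes with a peak in the gene span plus 5 kb was under what the same rule gave over all 19229 protein-coding genes of chromosomes 1 to 22. In H3K27me3 NC it was 0 of 38, beside 14.6% of all genes, and in ΔLINC00641 0 of 38, beside 14.6%. In ΔSETD5-AS1 it was 4 of 38 (10.5%), namely HOXB7, HOXB8, HOXB9 and HOXD13, beside 14.9%. In H3K9me3 NC it was 2 of 38 (5.26%), HOXD3 and HOXD10, beside 38.1%, and in ΔLINC00662 it was HOXD3 alone, beside 32.4%. HOX genes are short, with a median span of 4.22 kb against 27.6 kb for all genes, so a fixed window at the start site is the fairer measure.

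At the start site, the HOX genes carried 1 peak in all. Within 1 kb of the canonical start, 0 of 38 had a peak in H3K27me3 NC, 0 in ΔLINC00641 and 0 in ΔSETD5-AS1, beside 7.09%, 7.5% and 6.87% of all protein-coding genes. HOXD10 was the 1 HOX gene with an H3K9me3 peak there in NC, beside 5.08% of all genes, and 0 had one in ΔLINC00662, beside 4.1%. A stretch of 10 kb on each side was also taken, a width chosen after these values were seen. The H3K27me3 counts were then 0 in NC, 1 in ΔLINC00641 (HOXC13, 2.63%) and 6 in ΔSETD5-AS1 (HOXB7, HOXB8, HOXB9, HOXC13, HOXD12 and HOXD13, 15.8%), beside 12%, 12.1% and 12.2% of all genes. Of the 6, HOXB7, HOXB8 and HOXB9 share a peak, and so do HOXD12 and HOXD13. For H3K9me3 the counts were 4 in NC (HOXD9, HOXD10, HOXD11 and HOXD13, 10.5%) and 3 in ΔLINC00662 (HOXD3, HOXD4 and HOXD13, 7.89%), beside 21.7% and 17.3%.

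Between knockdown and control, the members with a peak in their span in the knockdown and not in NC were 4 for ΔSETD5-AS1, beside 2.74% of all genes, and 0 for ΔLINC00641, beside 2.4%. The 4 rest on 2 peaks, since 3 of them share the HOXB7 peak. No member had an H3K27me3 peak in NC only, beside 2.38% and 2.47% of all genes in the ΔLINC00641 and ΔSETD5-AS1 comparisons. In the H3K9me3 comparison HOXD10 had a peak in NC only, beside 9.21% of all genes, 0 had one in ΔLINC00662 only, beside 3.52%, and HOXD3 had one in both lists at different places.

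Other homeobox genes did have H3K27me3 peaks at their starts, which sets the empty HOX start sites beside genes of related function. Of 129 homeobox genes outside the clusters, 20 (15.5%) had a peak within 1 kb of the start in NC, 22 (17.1%) had one with ΔLINC00641 and 19 (14.7%) with ΔSETD5-AS1. Among 9 PAX genes, which encode paired domain factors, the numbers were 3, 3 and 2, and PAX2 and PAX4 had a peak in each of the 3 lists. Over all protein-coding genes the shares were 7.09%, 7.5% and 6.87%. Of 88 SOX, T-box, GATA and forkhead genes 9 (10.2%), 7 (7.95%) and 8 (9.09%) had one, which is near those shares, with SOX14 and FOXA2 in each list. These families were picked by name after the HOX values were seen, and no list was tested against another.

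**Figure D2:**
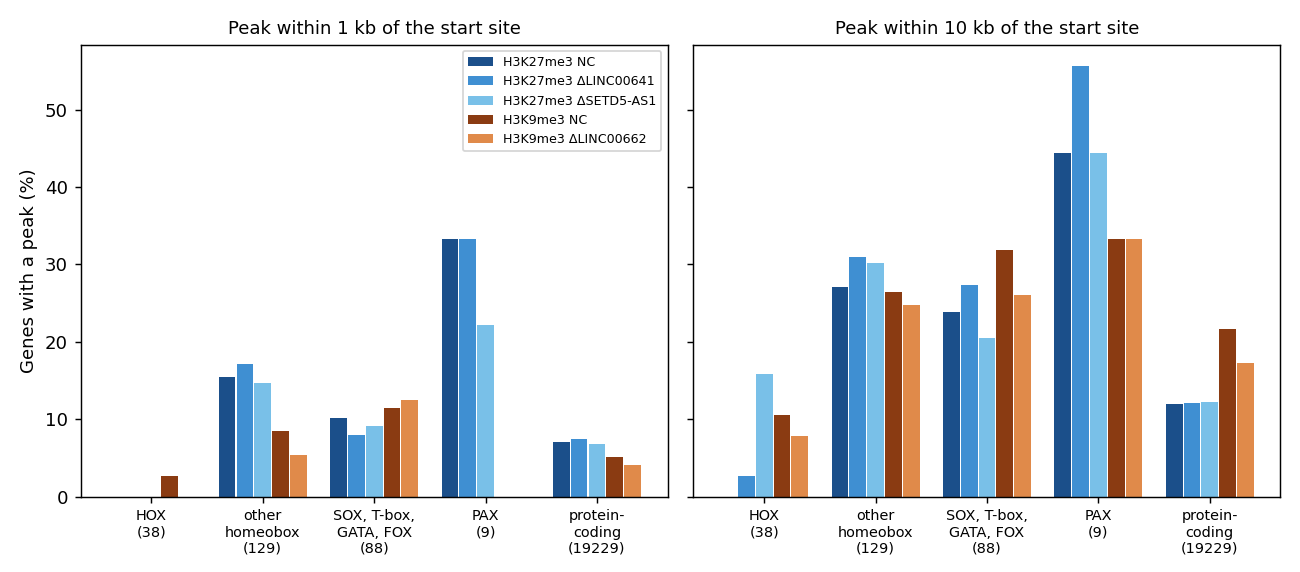
Percent of genes with a peak within 1 kb (left) and within 10 kb (right) of the start site, by gene family (number of genes in brackets) and peak list (colours). At 1 kb the HOX genes show a single bar, HOXD10 in H3K9me3 NC at 2.63%, while the other homeobox genes stand between 14.7% and 17.1% in the 3 H3K27me3 lists.

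Genes that act with or on the HOX clusters are given as counts, beside the 4.1% to 7.5% of all protein-coding genes with a peak within 1 kb of the start in the 5 lists. At that share lists this short would hold few such genes, so a count of 0 is not a result about them. None of 9 HOX cofactors, the PBX, MEIS and PKNOX proteins that bind DNA together with HOX proteins, had a peak within 1 kb of the start in any of the 5 lists. Among Polycomb subunits, CBX8, a reader of H3K27me3, had a peak of that mark in NC and in ΔLINC00641, and the PRC1 subunit BMI1 had one in ΔLINC00641. EZH1, a methyltransferase of PRC2, had an H3K9me3 peak in NC and not in ΔLINC00662. Among 8 activators of HOX transcription, CDX4, a homeodomain factor upstream of the clusters, had a peak in all lists but H3K9me3 NC, and the other 7 had none. None of 17 noncoding genes inside the clusters, HOTAIR, HOTTIP and HAGLR among them, had a peak within 1 kb of the start in any list.

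Expressed as length and density, peaks covered 0% of the HOX windows in H3K27me3 NC and ΔLINC00641 and 0.168% in ΔSETD5-AS1, beside 2.08%, 1.65% and 1.82% of chromosomes 1 to 22. For H3K9me3 they covered 0.182% in NC and 0.146% in ΔLINC00662, beside 1.83% and 1.10%. At the mean density of each list the 464 kb would hold 12.7, 10.2 and 11.9 H3K27me3 peaks and 13.1 and 9.44 H3K9me3 peaks. That mean overstates what a typical stretch of the genome held, because the peaks were crowded. Of 26631 bins of 100 kb on chromosomes 1 to 22, 71.8% had no H3K27me3 peak in the NC list, 73.3% had none with ΔLINC00641 and 70.1% had none with ΔSETD5-AS1, and the tenth of bins with most peaks held 83.6%, 84.7% and 82.1% of them. For H3K9me3, 25.1% of bins in NC and 35.2% in ΔLINC00662 had no peak. A bin of 100 kb without an H3K27me3 peak was therefore the common case in these lists, and one without an H3K9me3 peak was less so. The bins were not matched to the HOX clusters in GC or gene content.

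The peak-free stretches around the clusters differed by cluster. In H3K27me3 NC the HOXD cluster lay in a stretch of 5960 kb without a peak, and 3.09% of protein-coding start sites lay in a stretch at least as long. The HOXA cluster lay in one of 2660 kb (16.3%), HOXB in one of 980 kb (50.9%) and HOXC in one of 300 kb (80.1%). In ΔLINC00641 the stretches were 704 kb at HOXA (60.1%), 1110 kb at HOXB (45.2%), 163 kb at HOXC (86.8%) and 2240 kb at HOXD (20.7%). In ΔSETD5-AS1 the longest that reached into each cluster were 559 kb (65.3%), 877 kb (51.2%), 243 kb (81.9%) and 605 kb (63.4%) in that order. Each of these lengths ends at single peaks, so a single weak call decides where it stops.

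Distances from the 38 start sites to the nearest H3K27me3 peak followed the same pattern. In NC the 10 HOXA start sites were 564 kb (HOXA2) to 662 kb (HOXA13) from a peak and the 9 HOXD start sites 574 kb (HOXD1) to 670 kb (HOXD13). The HOXB start sites were 15.2 kb (HOXB1) to 213 kb (HOXB13) away and those of HOXC 65.8 kb (HOXC13) to 144 kb (HOXC6). Within a cluster these values rise or fall from gene to gene because neighbours measure to the same peak. In ΔLINC00641 the ranges were 42.3 to 140 kb for HOXA, 145 to 343 kb for HOXB, 9.95 to 80.1 kb for HOXC and 53.5 to 149 kb for HOXD. In ΔSETD5-AS1 they were 41.3 to 139 kb, 2.71 to 110 kb, 9.04 to 119 kb and 2.44 to 50.8 kb.

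Medians over the 38 members were 389 kb in NC, 96.6 kb in ΔLINC00641 and 47.9 kb in ΔSETD5-AS1, beside 193, 190 and 178 kb over all protein-coding genes. By cluster median, HOXA, HOXC and HOXD were nearer to a peak in both knockdowns than in NC. The HOXB median was 83.5 kb in NC, nearer in ΔSETD5-AS1 (26.0 kb) and farther in ΔLINC00641 (213 kb). These shifts come from few peaks. For HOXA in both knockdowns it is 1 peak each near EVX1, and 38 start sites in 4 clusters are not 38 separate measurements.

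For H3K9me3 the HOXD genes stood apart from the other clusters. In NC their start sites were 0.417 kb (HOXD10) to 20.7 kb (HOXD4) from the nearest peak, with a median of 13.3 kb, against medians of 109 kb for HOXA, 95.7 kb for HOXB and 75.9 kb for HOXC and 33.1 kb over all genes. In ΔLINC00662 the HOXD start sites were 3.02 kb (HOXD3) to 37 kb (HOXD9) away, with a median of 21.5 kb, against medians of 94.3, 95.7 and 91.1 kb in HOXA, HOXB and HOXC and 46.1 kb over all genes. The 9 HOXD genes were nearer than every HOXA and HOXC gene in both lists, and HOXB13, at 33.4 kb in both, was the nearest gene outside HOXD. Here too neighbours measure to the same few peaks, so the 9 are not separate measurements. Those peaks that lie inside the windows were lost at a −log10 q of at least 5.

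**Figure D3:**
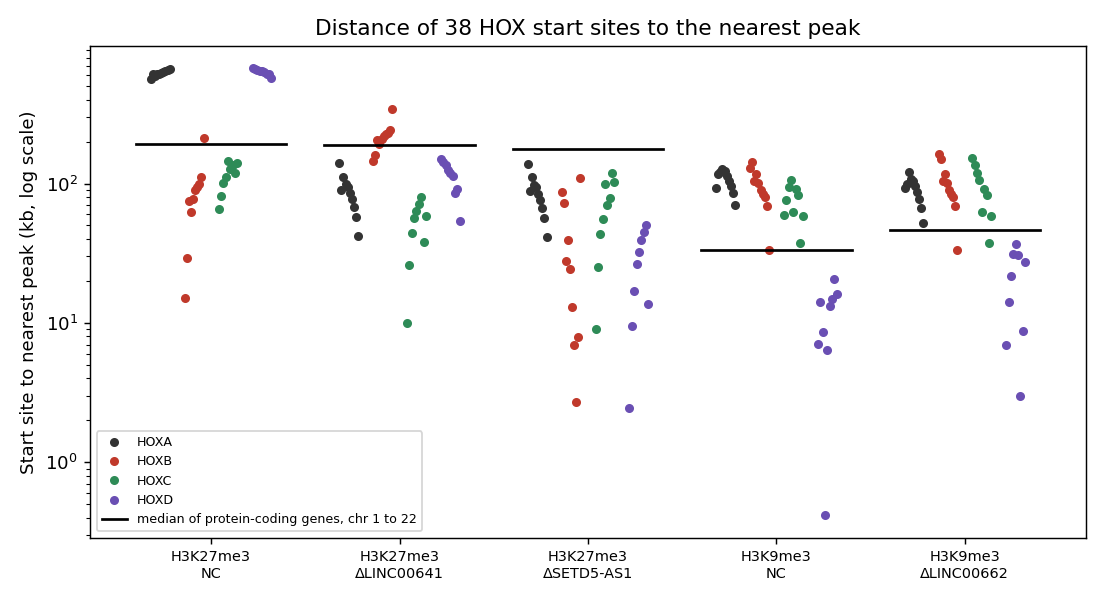
Distance in kb, on a log scale, from each of the 38 HOX start sites to the nearest peak, 1 point per gene in genome order, coloured by cluster, with the median of 19229 protein-coding genes as a black line. HOXA and HOXD lie above the line in H3K27me3 NC and below it in ΔLINC00641 and ΔSETD5-AS1, and HOXD lies below it in both H3K9me3 lists.

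A few H3K27me3 peaks lay within 50 kb outside the clusters in each list, beside HOXB in NC and beside HOXA, HOXC and HOXD in both knockdowns. In NC 1 lay 7.68 kb outside the HOXB windows, beyond HOXB1 (chr17:46592822-46593203), where neither knockdown had one within 50 kb, and in ΔSETD5-AS1 1 lay 6.41 kb outside the HOXD windows, beyond HOXD1 (chr2:177067041-177067533). EVX1, a homeobox gene beside HOXA13, had an H3K27me3 peak 126 bp from its start site in ΔLINC00641 (chr7:27281981-27282670, 30 fragments, 20.2 to 42.8, −log10 q 4.37) and one 1041 bp away in ΔSETD5-AS1 (chr7:27281059-27281414, 24 fragments, 15.4 to 35.7, −log10 q 3.42), and none in NC. On the far side of HOXC13, peaks at chr12:54321953-54322666 in ΔLINC00641 (18 fragments, 10.7 to 28.4) and chr12:54322007-54323578 in ΔSETD5-AS1 (21 fragments, 13.0 to 32.1) overlapped each other, and NC again had none. The −log10 q of these 4 peaks ran from 2.59 to 4.37, within the range of the 6 peaks inside the windows, 2.15 to 4.48. The check on the fragments needed for a call in NC was not made for these 4 peaks. Whether the mark differed from NC at these places was therefore not tested.

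EVX2, the homeobox gene beside HOXD13, held stronger peaks than any HOX window did, and they were of H3K9me3. In NC 4 peaks lay in the gene, and 1 more lay just outside it. The strongest by −log10 q was at chr2:176945444-176946869, with 69 fragments (53.7 to 87.3) and a −log10 q of 14.6. In ΔLINC00662 there was 1 in the gene, at chr2:176945576-176947346 with 40 fragments (28.6 to 54.5) and a −log10 q of 11, and 1 just outside. That NC peak had a fold enrichment of 3.43 over an input of 19.4, and the ΔLINC00662 peak in the gene 4.22 over 8.72. Another NC peak in the gene, chr2:176943447-176943897, had a fold enrichment of 4.95. Not all were strong: the NC peak at chr2:176944278-176944585, in the gene, had a fold enrichment of 1.84 and a −log10 q of 1.65. The NC peak just outside the gene had 1.99 and 2.09. Both were weaker by these values than every peak in the HOX windows. These fragment numbers are not scaled between the lists, and a difference was not tested. In the 50 kb on each side of the HOXD cluster there were 7 H3K9me3 peaks in NC and 4 in ΔLINC00662, and inside its windows of 103 kb there were 2 in each list. At the mean density of chromosome 2 the windows would hold 2.41 and 1.66, so the HOXD windows themselves were close to that mean.

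The density of H3K27me3 peaks outside the clusters differed by cluster and list. Over all 4 clusters the density in NC was 2.5 peaks per Mb within 50 kb of the cluster ends, 2.5 from 50 to 200 kb, 1.25 from 200 to 500 kb and 5.25 from 500 to 1000 kb, beside a mean of 27.4 over chromosomes 1 to 22. In ΔLINC00641 it was 10, 5, 1.25 and 5.25, beside 21.9, and in ΔSETD5-AS1 7.5, 7.5, 3.75 and 5.25, beside 25.6. The first of these rings holds 1, 4 and 3 peaks, so the differences between the lists rest on single calls. Around HOXC it was higher, at 20 within 50 kb and 16.7 from 50 to 200 kb in ΔLINC00641 and 10 and 16.7 in ΔSETD5-AS1, while NC had 0 and 10 there. The mean over chromosomes 1 to 22 is raised by the crowded bins described above. H3K9me3 densities were 22.5, 15, 22.1 and 15.8 in NC and 15, 9.17, 11.7 and 14 in ΔLINC00662.

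**Figure D4:**
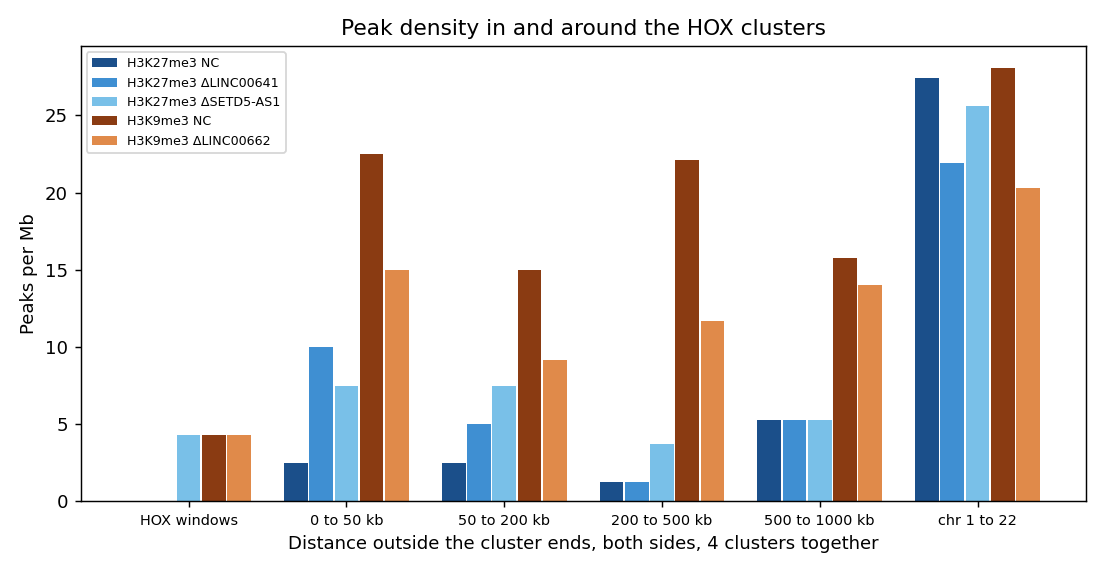
Peaks per Mb inside the HOX windows, in rings at increasing distance outside the ends of the 4 clusters, and over chromosomes 1 to 22, for the 5 lists. Pooled over the 4 clusters, H3K27me3 (blue) is at or under 10 in every ring, while H3K9me3 (brown) is between 9.17 and 22.5 outside the windows and 4.31 inside.

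The clusters are rich in G and C. Their windows were 52.0% (HOXA), 52.2% (HOXB), 52.6% (HOXC) and 50.7% (HOXD) GC, whereas the median GC content of peaks was 45.2%, 47.1% and 46.3% in H3K27me3 NC, ΔLINC00641 and ΔSETD5-AS1 and 47.5% and 50.3% in H3K9me3 NC and ΔLINC00662. At the GC make-up of the HOX windows, chromosomes 1 to 22 were covered by peaks to 2.74%, 2.82%, 2.67%, 2.59% and 2.13% in the same order, beside 2.08%, 1.65%, 1.82%, 1.83% and 1.10% over all tiles. The part of GC content in the HOX counts was not tested. Around the start sites, 29 of 38 HOX genes were CpG-rich (at least 55% GC and an observed over expected CpG ratio of at least 0.6). Of all protein-coding start sites, 60.3% were CpG-rich by the same rule. The median GC content was 59.7% at HOX start sites and 61.4% over all. Over all protein-coding genes, 6.54% of CpG-rich starts and 7.93% of the others had an H3K27me3 peak in NC.

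**Figure D5:**
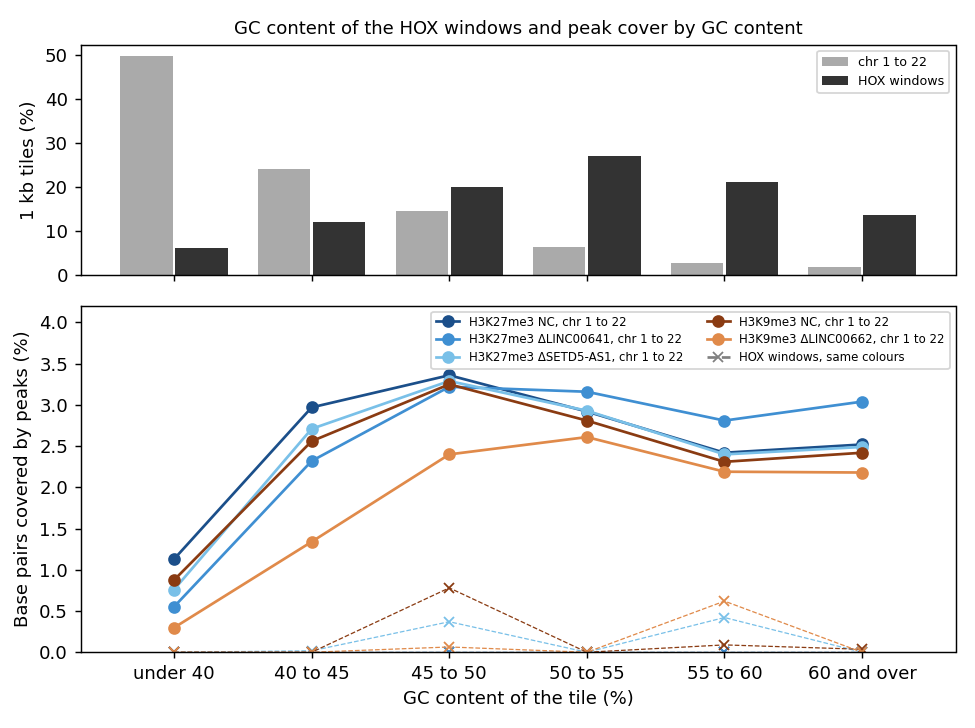
Top, percent of 1 kb tiles by GC content on chromosomes 1 to 22 (grey) and in the HOX windows (black). Bottom, percent of base pairs covered by peaks in each class on chromosomes 1 to 22 (solid) and in the HOX windows (dashed), where HOX cover stays under 1% in every class and list.

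How weak a signal could be and still be called bears on every empty place above. Solving the fold enrichment and p-value of each peak for the fragments behind it gave whole numbers for 100% of peaks (within 0.05), and a genome-wide input level of 3.85, 3.78, 4.43, 4.29 and 3.50 fragments in the 5 lists in the order above. The weakest peak of each list had 11 or 12 fragments. The 6 HOX peaks lay over a local input of 1.81 to 3.26 times that level, beside medians over chromosomes 1 to 22 of 1.07 in ΔSETD5-AS1, 1.32 in H3K9me3 NC and 1.56 in ΔLINC00662, and at 3 to 4 times the level the weakest peaks had 24, 23, 26, 25 and 22 fragments. The lists hold called peaks only, so the input at HOX places without a peak was not measured. An even level of the mark that stayed under the fragments needed for a call cannot be told apart from its absence. The authors called narrow peaks, a mode that looks for local summits and may miss broad domains, the form H3K27me3 is known to take over silent HOX clusters, so 0 peaks there does not show that the clusters lacked the mark.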

How the data were processed

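ChIP-seq of H3K27me3 and H3K9me3 was described from 5 narrowPeak lists on hg19. Processing by the authors comprised adapter removal (cutadapt 3.3), alignment (Bowtie2 2.4.2), duplicate removal (GATK MarkDuplicates), merging of replicates and peak calling in BAMPE mode (MACS2 2.2.7.1). The deposited values are fold enrichment (a ratio over local input), −log10 p-values, −log10 q-values and an integer score, which was not used. Fragments and local input at each summit were solved from fold enrichment, with a pseudocount of 1, and p-value, and this was tested on simulated data. Each list rests on about 39.1, 38.1, 45.0, 42.2 and 34.6 M fragments (H3K27me3 NC, ΔLINC00641, ΔSETD5-AS1, then H3K9me3 NC, ΔLINC00662), an estimate from the genome-wide input level, the shortest peak and an effective genome of 2.7 Gb. Genes, start sites of canonical transcripts and sequences came from GENCODE 44 and the genome of the same build. The members and lists were chosen with earlier results of these data known. Of 39 genes in the rule, 1 is not reported here, nor are counts over the Polycomb subunits. Named genes were to be ranked by covered length in H3K27me3 NC, which was 0 for every member, so all members with a peak and the nearest and farthest genes of each cluster are given. Python 3.11.15, numpy 2.4.6, pandas 2.3.3 and scipy 1.17.1 were used. Alternatives were a stricter threshold, equal list sizes, an input limit, merged peaks, other spans and other start site windows.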

Additional observations from a re-analysis of the deposited data

How the results depend on the processing

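No paired analysis was possible because the authors merged the replicates before calling peaks, and leaving out a replicate could not be done for the same reason. Across 17 results, 108 alternative values were computed, of which 86 stayed within 1.5 times the value given or, for retention (33.3% with gaps filled, 58.3% with 50 kb, both chosen after seeing the data), its interval. Many of the 86 are a value of 0 that stayed 0. A stricter threshold, equal list sizes, an input limit, merging or no flank cannot add a peak to an empty window. For such windows those outcomes were fixed in advance and do not measure stability. With a −log10 q of at least 5, every peak in the HOX windows was lost, so that cover, peak counts and the HOXD10 start site count fell to 0 in ΔSETD5-AS1 and both H3K9me3 lists. With 50 kb on each side of the genes, chosen after seeing the data, the windows held 1, 3, 5, 12 and 8 peaks and 0.0417%, 0.205%, 0.35%, 0.781% and 0.512% cover (H3K27me3 NC, ΔLINC00641, ΔSETD5-AS1, H3K9me3 NC, ΔLINC00662). With no flank ΔSETD5-AS1 kept 1 peak, since the HOXD13 peak lies outside the gene. With a start site window of 2500 bp 1 HOX gene had an H3K27me3 peak in ΔSETD5-AS1, and with the 5′ end of the gene record in place of the canonical start HOXD10 had none in H3K9me3 NC, a count of 0. Merging peaks within 1 kb joined the HOXD3 peaks of ΔLINC00662 into 1 and turned the ratio of covered length, ΔLINC00662 over NC, from 0.804 to 1.19. Ratios, retention and paired folds for H3K27me3 could not be formed, because NC had no peak in the windows, and no H3K9me3 peak was paired. The 6 peaks in the windows rest on 23 to 36 fragments each.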
